A study of Mus musculus with 12 samples.

Results

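The genes Procr, Fgd5, Ctnnal1, Robo4, Esam, Ly6a, Ndn and Mllt3 mark or regulate hematopoietic stem cells of the mouse, and their chromatin accessibility is described here in 4 groups of sorted cells. Regions of the deposited count table were taken for a gene when they overlapped its protein-coding RefSeq body, or else when that body was the nearest one within 100 kb. This gave 117 of 188262 regions: 74 for Mllt3, 15 for Fgd5, 8 for Ly6a, 7 for Procr, 6 for Ctnnal1, 3 each for Robo4 and Esam, and 1 for Ndn. Of these, 88 lay in gene bodies and 29 were placed by distance alone, so their link to the gene is one of position only. All 117 passed the filter on low counts. Robo4 and Esam are neighbours on chromosome 9, with 114 kb between their bodies. Ctnnal1 and Mllt3 both lie on chromosome 4, 31 Mb apart.

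The assay was ATAC-seq, which reads out where Tn5, a transposase loaded with adapters, can cut accessible chromatin. There were 12 libraries, 3 a group, all from males. The groups were multipotent progenitors (MPP) without Phf6 (KO, Phf6−/Y Rosa26+/Cre-ERT2), MPP with a floxed and undeleted Phf6 (WT, Phf6f/Y Rosa26+/+), and long-term hematopoietic stem cells (LT-HSC) of the same KO and WT genotypes. LT-HSC sustain blood formation over a lifetime, and MPP are their early descendants. PHF6, encoded on the X chromosome, binds chromatin and is recurrently mutated in T cell leukemia. For LT-HSC, the labels describe nuclei of 20000 sorted cells from individual mice of both genotypes, 8 weeks after tamoxifen. How the MPP were obtained, and whether MPP and LT-HSC libraries of one number share a mouse, was not stated, so p-values measure the spread between these libraries. Every KO library carries Cre-ERT2 and no WT library does, so the effects of Cre and of Phf6 loss cannot be told apart.

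These genes are known for different roles. Procr (EPCR, the receptor of protein C), Esam (a junctional adhesion molecule) and Ly6a (Sca-1, a GPI-anchored protein) are cell-surface proteins used to sort stem cells. Robo4 is a guidance receptor that has been tied to the lodging of stem cells in bone marrow, and Procr, Esam and Robo4 are also endothelial genes. Fgd5, an exchange factor for the GTPase Cdc42, and Ctnnal1, which encodes alpha-catulin, gave knock-in reporters that label stem cells. Ndn encodes necdin, an imprinted growth suppressor linked to stem cell quiescence. Mllt3 (AF9) reads acylated histones through its YEATS domain, belongs to the elongation machinery and is known for maintaining stem cells. Open regions at a promoter, and at distal elements that may act on it, accompany but do not measure transcription.

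Promoter windows of RefSeq (GRCm38.p6, 250 bases before to 50 after a start site) were at hand for 6 of the 8 genes, 7 windows in all because Mllt3 has 2 start sites 227 kb apart. Each window was overlapped by 1 region. Windows of 4 genes are printed 5′ to 3′ on the coding strand, because the regions over them contrast between MPP and LT-HSC: no difference was called at the upstream Mllt3 start, small ones at Ctnnal1 and Robo4, and large ones at the internal Mllt3 start and Ndn. Capitals mark matches, on either strand, to the ETS, MEIS, E-box and SP/KLF motifs spelled out after the sequences, and matches can overlap each other.
Mllt3, upstream start, chr4:88033358-88033657, minus strand: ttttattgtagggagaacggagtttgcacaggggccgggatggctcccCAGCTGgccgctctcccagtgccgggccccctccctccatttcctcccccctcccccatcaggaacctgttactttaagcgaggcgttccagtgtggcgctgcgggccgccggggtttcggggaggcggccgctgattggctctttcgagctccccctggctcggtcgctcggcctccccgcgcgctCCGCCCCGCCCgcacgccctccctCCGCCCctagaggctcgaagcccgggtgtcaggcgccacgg
Mllt3, internal start, chr4:87806274-87806573, minus strand: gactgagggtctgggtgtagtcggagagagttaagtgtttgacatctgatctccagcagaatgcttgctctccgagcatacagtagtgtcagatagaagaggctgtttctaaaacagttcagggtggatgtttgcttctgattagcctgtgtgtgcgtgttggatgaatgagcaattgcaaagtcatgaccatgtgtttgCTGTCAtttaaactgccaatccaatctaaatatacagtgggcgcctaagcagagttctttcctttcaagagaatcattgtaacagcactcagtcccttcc
Ndn, chr7:62348027-62348326, plus strand: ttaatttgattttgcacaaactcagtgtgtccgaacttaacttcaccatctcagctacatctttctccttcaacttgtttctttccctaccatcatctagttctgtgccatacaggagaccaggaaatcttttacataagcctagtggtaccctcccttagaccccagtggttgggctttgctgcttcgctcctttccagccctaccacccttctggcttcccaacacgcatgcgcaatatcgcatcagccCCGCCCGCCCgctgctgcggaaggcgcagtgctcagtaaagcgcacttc
Robo4, chr9:37401722-37402021, plus strand: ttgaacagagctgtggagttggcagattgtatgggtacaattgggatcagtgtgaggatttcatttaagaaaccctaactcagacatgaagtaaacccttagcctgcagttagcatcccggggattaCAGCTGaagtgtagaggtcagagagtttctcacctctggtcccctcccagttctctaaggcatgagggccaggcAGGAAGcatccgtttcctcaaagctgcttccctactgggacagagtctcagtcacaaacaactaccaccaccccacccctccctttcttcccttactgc
Ctnnal1, chr4:56865162-56865461, minus strand: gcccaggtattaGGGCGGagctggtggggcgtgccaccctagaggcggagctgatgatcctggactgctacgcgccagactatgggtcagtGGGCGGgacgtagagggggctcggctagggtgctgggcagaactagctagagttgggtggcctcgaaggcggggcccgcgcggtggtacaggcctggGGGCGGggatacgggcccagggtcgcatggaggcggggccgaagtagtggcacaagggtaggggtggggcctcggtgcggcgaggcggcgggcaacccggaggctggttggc

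The windows differed in base composition and motif letters. The ratio of observed to expected CpG was 0.97 for Fgd5, 0.79 for the upstream Mllt3 start, 0.73 for Ctnnal1, 0.62 for Ndn, 0.53 for Procr, 0.27 for the internal Mllt3 start and 0.11 for Robo4, with a median of 0.38 over 32851 windows. SP/KLF letters (GGGCGG) were found in Fgd5, Ctnnal1, Ndn and the upstream Mllt3 window, and in 35.7% of all windows. An E-box (CAGCTG) was found in Procr, Robo4 and the upstream Mllt3 window, and in 16.3% of all. AP-1 letters (TGANTCA) were found in Procr and in 7.8% of all windows. MEIS letters (TGACAG) were found in Fgd5 and at the internal Mllt3 start, and in 19.2% of all. One form of the ETS motif (AGGAAG) was found in Fgd5 and Robo4, and in 35.4% of all. The other form (CCGGAA), present in 14.9% of all windows, was in none of the 7. The same held for GATA letters (AGATAA), present in 11.2%, and RUNX letters (TGTGGT), present in 16.8%. A match is a description of letters and not of a bound factor.

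Total counts were 22665988 to 48547234 a library, replicates had a Pearson r of 0.971 to 0.982 on log2 CPM over regions, and each pair of replicates differed by more than counting noise (chi-square per degree of freedom 1.57 to 3.26). Levels are CPM, counts scaled to library size with TMM factors. The deleted part of Phf6 was not stated, so accessibility there is no check of the genotype. Of the 10 regions assigned to Phf6, 0 were called lower and 1 higher in KO MPP and 0 were called in KO LT-HSC, and the strongest had 27.7 to 29.7 CPM in KO MPP, 30.6 to 32.4 CPM in WT MPP, 26.5 to 28.8 CPM in KO LT-HSC and 25.4 to 27.3 CPM in WT LT-HSC. Levels of whole genes, summed over all of their regions, carry the scaling of the table of summed genes. LT-HSC marker genes that are not among the 8 were lower in MPP than in LT-HSC in WT in 6 of 6 (Hlf, Mecom, Meis1, Slamf1, Gata2, Hoxb5), and MPP marker genes were higher in 6 of 6 (Flt3, Cd34, Cd48, Satb1, Dntt, Il7r), the directions that the labels call for. Tests are edgeR quasi-likelihood tests with Benjamini-Hochberg adjustment over all regions or genes, a call means an adjusted p under 0.05, and fold changes are log2 with their standard error (SE).

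At the level of whole genes, all 8 had lower accessibility in MPP than in LT-HSC, in KO and in WT mice. Ndn and Esam showed the largest differences. Ly6a showed the smallest, a place that depended on 7 regions placed by distance: over its body alone it fell by 0.74 in WT and by 0.71 in KO, further than Ctnnal1 (−0.31 in WT, −0.32 in KO). Among all 18829 genes tested in WT, 73.3% were called in this comparison, made up of 36.6% lower and 36.7% higher, so a call alone is common. In KO mice 72.6% of all genes were called, 34.5% lower and 38.0% higher.

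**Figure D1:**
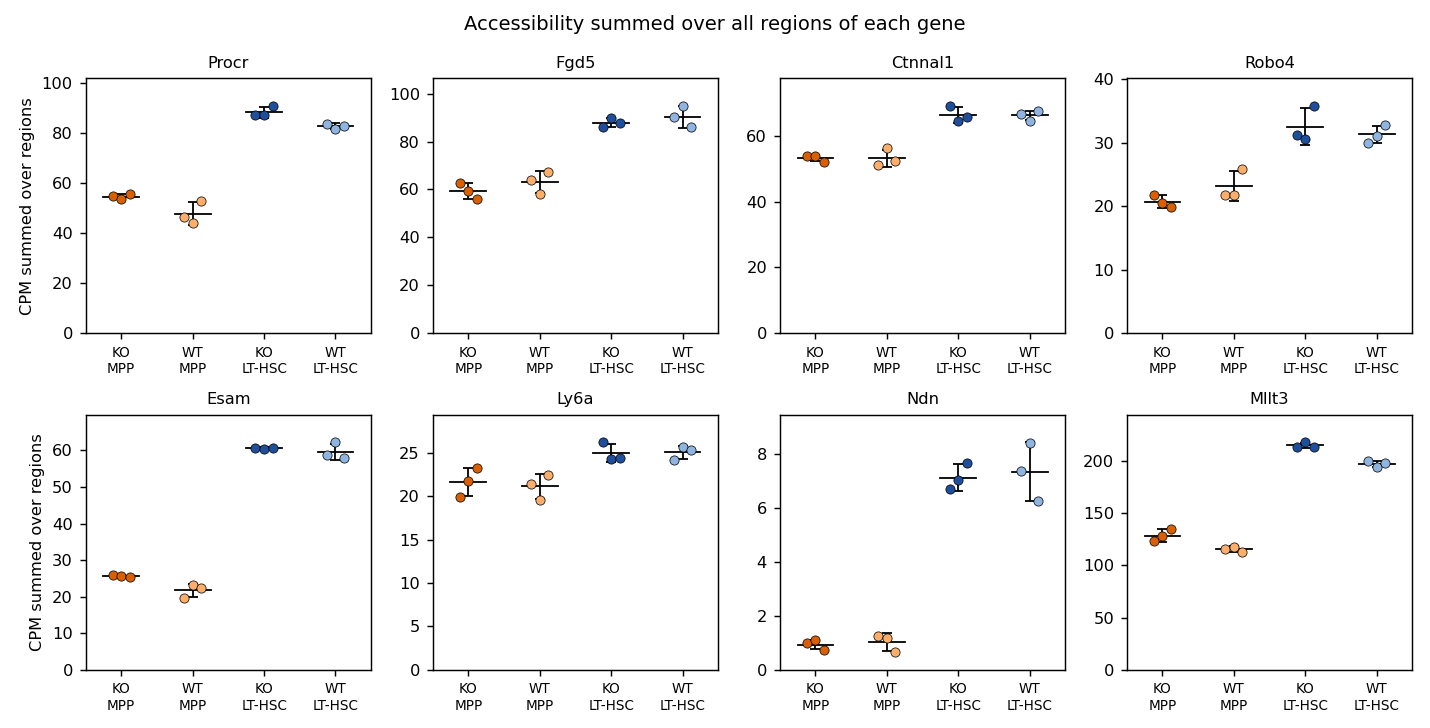
Accessibility summed over all regions of each gene (CPM, linear axis from 0) in KO MPP, WT MPP, KO LT-HSC and WT LT-HSC. Points are libraries, horizontal lines the means and bars the SD of 3 libraries. The MPP libraries of both genotypes lie below all LT-HSC libraries of the same genotype for each of the 8 genes, with Ndn at 0.653 to 1.26 CPM in MPP and 6.26 to 8.43 CPM in LT-HSC.

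Ndn, an imprinted gene of 1.7 kb, was represented by a single region over its promoter (chr7:62348080-62348514). Its level was 1.01, 1.11 and 0.755 CPM in KO MPP and 1.28, 1.21 and 0.643 CPM in WT MPP. In LT-HSC it was 6.91, 7.18 and 7.84 CPM in KO and 7.2, 8.37 and 6.08 CPM in WT. The MPP and LT-HSC libraries were far apart, while those of KO and WT overlapped in both populations. MPP over LT-HSC was −2.74 (SE 0.17, adjusted p = 2.19e-15) in WT and −2.92 (adjusted p = 2.69e-15) in KO. Counts behind the region were 19 to 58 in MPP libraries and 176 to 298 in LT-HSC libraries. Its imprinted neighbours Magel2 (−1.74) and Snrpn (−1.70) fell too in WT MPP on summed counts, Peg12 fell less (−0.25), Mkrn3 rose (0.48), and Ube3a did not pass (−0.03, adjusted p = 0.49).

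Esam had 3 regions, all called lower in MPP in both genotypes, against 35.2% of all regions in WT and 34.4% in KO. The highest lay inside the gene (chr9:37530057-37530529) and had 15.6, 15.3 and 14.9 CPM in KO MPP and 10.9, 14.7 and 12.3 CPM in WT MPP. LT-HSC had 42.4, 41.1 and 40.6 CPM in KO and 37.1, 41.7 and 36.5 CPM in WT. No MPP library came near an LT-HSC library, and the difference was −1.60 (SE 0.08, adjusted p = 2.28e-17) in WT and −1.45 in KO. Both gene-end regions (within 1 kb of an end of the body), 1 of them across the border of the gene, fell less, by 1.05 and 1.19 on the log2 scale in WT. Summed over the gene, WT MPP had 21.7 ± 1.81 CPM and WT LT-HSC 59.7 ± 2.21 CPM (SD, n = 3 each).

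Procr, a gene of 4.4 kb, had its strongest region not at its promoter but centred at −8.1 kb from its start, where a minus sign means upstream (chr2:155742889-155743383), with 39.7% of the gene's level. That region had 21.6, 20.7 and 20.4 CPM in KO MPP, 15.5, 14 and 16.3 CPM in WT MPP, 39.6, 37.2 and 42.7 CPM in KO LT-HSC and 32.5, 34.9 and 32.4 CPM in WT LT-HSC. All 4 groups were separate, with LT-HSC above MPP and KO above WT. MPP over LT-HSC was −1.13 (SE 0.07, adjusted p = 6.85e-15) in WT. An adjacent region at −8.8 kb (chr2:155742164-155742643) fell further, to 3.41, 3.33 and 4.84 CPM in WT MPP against 15.2, 15 and 14.6 CPM in WT LT-HSC (−1.98, adjusted p = 1.65e-16). The promoter fell by 0.56 in WT (7.12 ± 0.12 CPM in MPP, 10.5 ± 0.956 CPM in LT-HSC, adjusted p = 6.08e-06). The other end of the gene did not pass (10.7 ± 1.39 CPM in WT MPP, 11.5 ± 1.31 CPM in WT LT-HSC, adjusted p = 0.326). In WT, 3 of the 7 regions of Procr were called, all lower: the upstream pair and the promoter. In KO, 5 of the 7 were lower and 1 higher: beside the upstream pair and the promoter, those at 5.8 kb (−0.47, adjusted p = 0.000632) and 14.0 kb (−0.29, adjusted p = 0.045) were lower, and that at −5.3 kb was higher (0.76, adjusted p = 0.0127). Of all regions, 35.2% were called lower and 34.6% higher in WT, and 34.4% and 33.3% in KO.

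Fgd5 spans 97.2 kb and had regions that went both ways. Its strongest region, at −6.7 kb from the start (chr6:91972064-91972550), had 16.6, 14.2 and 16.9 CPM in WT MPP against 26.3, 33 and 26.6 CPM in WT LT-HSC (−0.85, SE 0.08, adjusted p = 1.66e-10). The promoter region fell by 1.24 in WT (3.27 ± 0.677 CPM in MPP, 7.59 ± 0.649 CPM in LT-HSC), and the regions 13.6 and 15.5 kb into the gene fell by 1.54 and 1.52. The gene-end region with the highest level (start 91979517) fell by 0.34 (adjusted p = 0.01), a call lost when the share of counts within 1 kb of a gene end was a covariate (the gene-end covariate, adjusted p = 0.0669). A region at −3.1 kb (chr6:91975648-91976052), between the strongest region and the promoter, was higher in WT MPP: 4.61, 3.79 and 3.72 CPM against 2.24, 1.91 and 1.82 CPM in WT LT-HSC (1.02, SE 0.15, adjusted p = 6.67e-07). In KO the same region had 2.53, 2.94 and 2.61 CPM in MPP against 2.2, 2.55 and 1.6 CPM in LT-HSC, groups that overlapped (0.34, adjusted p = 0.0758). The difference between these genotypes' changes was −0.69 (SE 0.23) with an adjusted p of 0.497, so it was not called. Over all 15 regions, 7 were called lower and 1 higher in WT, and 9 lower and 1 higher in KO. Among all regions of the table, 35.2% were lower and 34.6% higher in WT, and 34.4% and 33.3% in KO.

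Ctnnal1 was almost entirely its promoter. The region over the start (chr4:56865079-56865582), in the 98.9th percentile of all regions by CPM per kb, held 93.2% of the gene's level. It had 51.7, 50.5 and 48.5 CPM in KO MPP, 48.6, 53.7 and 47.8 CPM in WT MPP, 66.4, 61.7 and 62.5 CPM in KO LT-HSC and 60.6, 60.3 and 62 CPM in WT LT-HSC. MPP libraries lay below LT-HSC libraries without overlap, by a small difference (−0.28, SE 0.06, adjusted p = 6.92e-05 in WT; −0.34 in KO). Inside the gene, weak regions differed by more in WT. The region at 22.1 kb had 0.297 CPM in WT MPP against 1.21 CPM in WT LT-HSC (−1.98), and the one at 11.1 kb had 0.124 CPM in WT MPP against 0.648 CPM in WT LT-HSC (−2.31). The one at 34.0 kb was higher, at 1.18 CPM in WT MPP against 0.543 CPM in WT LT-HSC (1.14).

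Robo4 had 3 regions. The promoter (chr9:37401719-37402157) had 14.9, 15 and 16.8 CPM in WT MPP against 20.6, 22.4 and 21.9 CPM in WT LT-HSC (−0.48, SE 0.08, adjusted p = 7.91e-06), and in KO it fell by 0.71. A region just inside the gene (chr9:37402512-37403074) fell by 1.38 in both genotypes, to 1.51 ± 0.196 CPM in WT MPP against 3.92 ± 0.432 CPM in WT LT-HSC. The third, 4.6 kb into the gene, was called higher in WT MPP (0.26, adjusted p = 0.0432), but libraries overlapped and the call was lost under 8 of the alternatives, among them leaving out WT MPP 1, WT MPP 3, WT LT-HSC 1 or WT LT-HSC 2 (adjusted p up to 0.204).

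Ly6a changed in both directions among its regions. Its body region (chr15:74997707-74998172) had 5.21, 4.94 and 5.45 CPM in WT MPP against 7.6, 9.47 and 8.25 CPM in WT LT-HSC (−0.70, SE 0.11, adjusted p = 7.63e-07), and a region 11.9 kb away fell by 1.95. A region 3.5 kb outside the body (chr15:75001506-75001969) was higher in MPP, at 1.63, 1.17 and 1.42 CPM in WT MPP against 0.602, 0.759 and 0.868 CPM in WT LT-HSC (0.91, adjusted p = 0.000795, but 0.135 with the gene-end covariate). Summed over 8 regions the gene had 21.1 ± 1.46 CPM in WT MPP and 25.1 ± 0.773 CPM in WT LT-HSC (−0.25, adjusted p = 0.00139), against −0.74 when only the region in its body was counted. The summed call was lost (adjusted p = 0.0794) when the share of counts within 1 kb of a gene end was a covariate. That share was 39.2 to 41.0% in WT MPP and 37.8 to 38.9% in WT LT-HSC. These ranges did not overlap, so the covariate cannot separate the share from the population. In KO the difference was −0.21 (adjusted p = 0.00822), and this call was lost with the covariate and without KO LT-HSC 1 or KO MPP 1. Ly6a lies in a cluster of related Ly6 genes, and the authors' handling of reads that match several of them was not stated. Of 9 neighbours with a region, 4 were higher in WT MPP (Ly6c1, Ly6d, Ly6e, Ly6k) and 2 lower (Ly6g, Ly6h). Among all genes, 36.7% were higher and 36.6% lower.

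**Figure D2:**
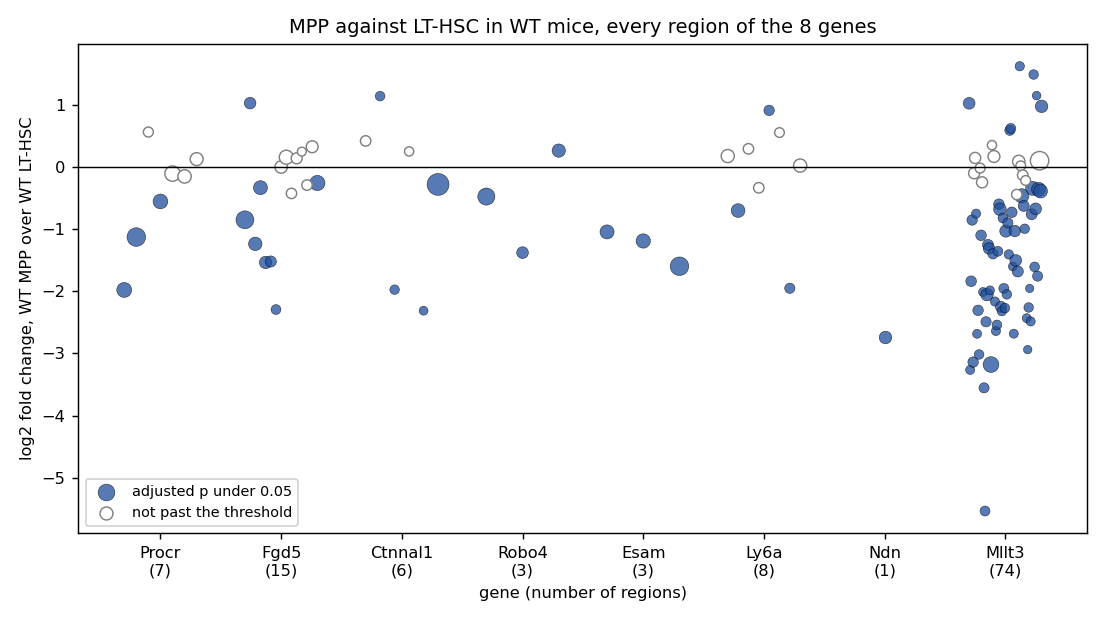
Log2 fold change of WT MPP over WT LT-HSC for all 117 regions, by gene, in order of coordinate within a gene. Each point is 1 region, its area grows with its mean CPM, and filled points had an adjusted p under 0.05. Most filled points lie below 0, with exceptions in Fgd5, Ctnnal1, Robo4, Ly6a and Mllt3.

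Mllt3, the longest of these genes at 263.5 kb, kept its main promoter while most of the gene lost accessibility. The region at the upstream start (chr4:88033186-88033650) had 27.6, 26.3 and 28.7 CPM in KO MPP, 25.7, 26.5 and 24.4 CPM in WT MPP, 27.6, 27.1 and 28.3 CPM in KO LT-HSC and 24.8, 23.6 and 23.2 CPM in WT LT-HSC. MPP over LT-HSC there was 0.10 (SE 0.07, adjusted p = 0.19) in WT and −0.01 (adjusted p = 0.941) in KO. By contrast the internal start (chr4:87806143-87806651) had 1.2, 1.44 and 1.56 CPM in WT MPP against 5.39, 5.39 and 6.6 CPM in WT LT-HSC (−2.06, SE 0.15, adjusted p = 6.62e-14). The region with the highest level in LT-HSC away from the main promoter, 209.8 kb downstream of the upstream start (chr4:87823222-87823957), had 1.83, 2.38 and 2.5 CPM in WT MPP against 19.8, 19.7 and 21.1 CPM in WT LT-HSC (−3.18, SE 0.11, adjusted p = 3.89e-21). The libraries of the populations were far apart. In KO the difference was −2.83, with 2.77, 3.88 and 3.72 CPM in MPP against 26, 24.6 and 24.3 CPM in LT-HSC.

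Over the 74 regions of Mllt3, 55 were called lower and 7 higher in WT MPP, against 35.2% lower and 34.6% higher among all regions. In 23 the decrease was at least 4-fold, and of all regions tested 5.8% were called lower by that much. One of the 23, at 167.4 kb (chr4:87865820-87866269), had 0.667 CPM in WT MPP against 3.18 CPM in WT LT-HSC (−2.25). Of the 7 higher regions, 5 lay inside the gene and had at most 1.55 CPM in WT MPP. The others lay outside it, at 350.3 kb (1.02) and −13.1 kb (0.97) from the upstream start. In both, WT MPP 3 was low (2.2 against 4.23 and 4.34 CPM, and 3.45 against 5.84 and 6.29 CPM for WT MPP 1 and 2), and both calls were lost with the gene-end covariate (adjusted p = 0.505 and 0.108). The lowest region in WT MPP, 231.1 kb downstream (chr4:87802112-87802537), had only 3, 1 and 0 counts there against 70, 56 and 57 counts in WT LT-HSC, too few for a firm fold change.

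**Figure D3:**
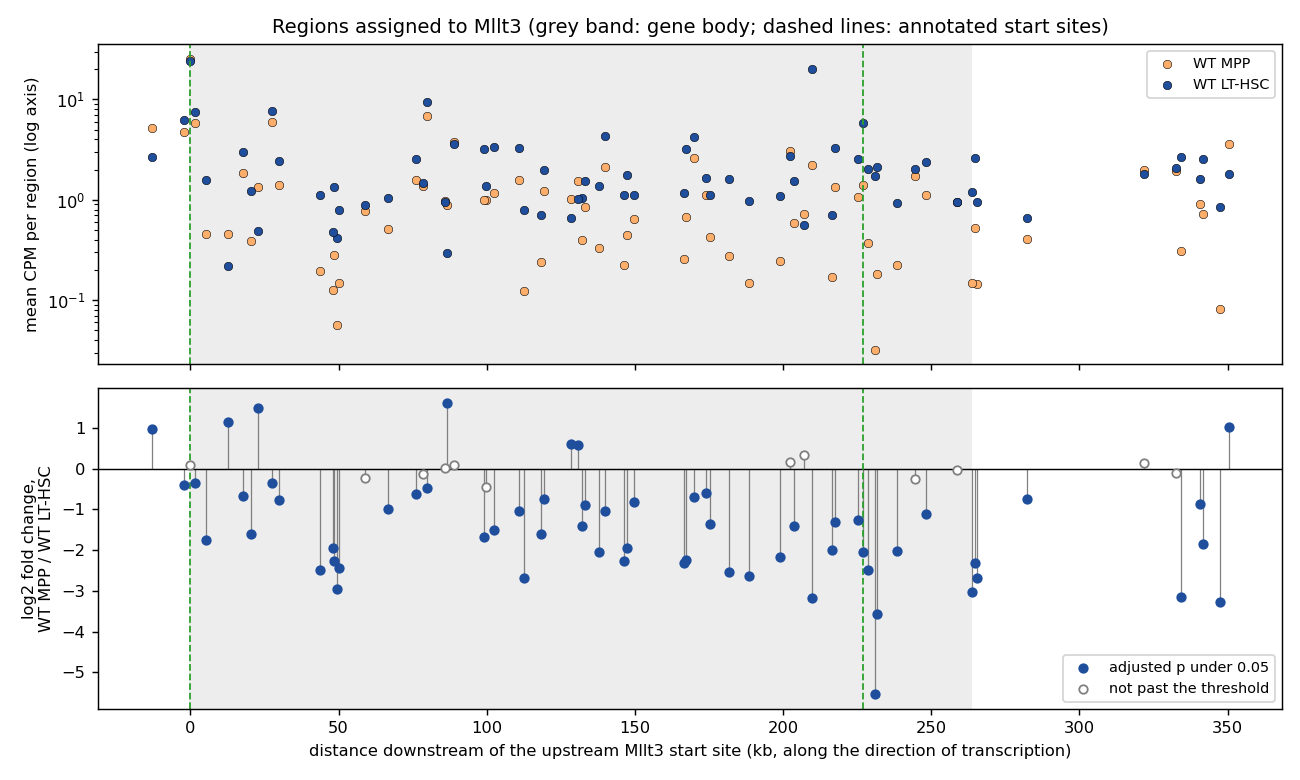
Regions assigned to Mllt3 by distance from its upstream start (kb, along transcription). Above, mean CPM in WT MPP and WT LT-HSC (log axis, n = 3 each); below, log2 fold change of WT MPP over WT LT-HSC, filled where adjusted p was under 0.05. The region at distance 0 lies near 25 CPM in both populations, while the region 209.8 kb downstream is at 2.24 CPM in WT MPP and 20.2 CPM in WT LT-HSC.

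Over the 8 genes, 76 of the 117 regions were called lower and 11 higher in WT MPP than in WT LT-HSC, against 35.2% lower and 34.6% higher (69.8% in all) among all regions, and the median log2 fold change was −0.823 for these regions and 0.006 for all. In KO, 79 were lower and 11 higher, against 34.4% and 33.3% (67.7% in all) of all regions, with a median of −0.848. The higher calls depended on the gene-end covariate, with which 3 were left in each genotype, beside 60 lower in WT and 59 lower in KO. Over all regions the covariate left 42670 higher and 43439 lower in WT, against 64488 and 65514 without it. Since Mllt3 gives 74 regions, calls without this covariate were also counted leaving Mllt3 out: 21 of 43 were lower and 4 higher in WT, with a median of −0.294. Of the 7 regions over promoter windows, 6 were lower and the upstream Mllt3 start was not called, against 33.7% lower and 35.8% higher among 13957 regions over such windows. The calls of KO and WT shared 72 lower regions, 94.7% of the WT list and 91.1% of the KO list.

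Markers of other cell types also differed between the populations. Such calls are common: in WT 73.3% of all genes were called on summed counts, 36.6% lower and 36.7% higher in MPP. Of 8 endothelial genes 5 were lower and 1 (Plvap) higher in WT MPP, with summed levels of 403 to 439 CPM in WT MPP and 494 to 503 CPM in WT LT-HSC. All 5 T cell genes with a region were higher in WT MPP (95.9 to 103 CPM, against 69.8 to 74.4 CPM in WT LT-HSC), and of 6 myeloid genes 4 were higher and 1 lower (246 to 267 CPM in WT MPP, against 163 to 171 CPM in WT LT-HSC). B cell genes had 165 to 167 CPM in WT MPP and 182 to 185 CPM in WT LT-HSC, and erythroid genes 185 to 197 CPM in WT MPP and 195 to 202 CPM in WT LT-HSC. The markers of B cells and of erythroid cells were 2 higher and 1 lower, and 3 higher and 2 lower. No gene of these lists with a region was at 0 in any group mean, and Cd3g had no region. Their part in the result was not tested. In sorted bulk cells, fewer open cells and less openness per cell cannot be told apart.

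A wider list of 33 other surface and reporter genes of stem cells gave a mixed picture: 21 were lower and 7 higher in WT MPP, against 36.6% lower and 36.7% higher among all genes. The 4 with the lowest p were Tcf15 (−1.67), Pdzk1ip1 (−1.33) and the angiopoietin receptor relative Tie1 (−1.17), all lower, and the cytokine receptor Flt3 (0.89), which marks progenitors and was higher. The median was −0.25.

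Between genotypes the differences were far smaller. In KO LT-HSC, 6 of the 117 regions were called higher than in WT LT-HSC and none lower, against 3.27% higher and 1.47% lower (4.74% in all) among all regions. In KO MPP, 11 were called higher and 2 lower than in WT MPP, against 5.12% and 3.59% of all (8.71% together). No lower call was made in LT-HSC by edgeR or DESeq2. In edgeR 26 of the 117 had an unadjusted p under 0.05 in LT-HSC in either direction, and so did 37363 of all 186373 regions tested. The split over all regions depended on scaling: 69.0% of the LT-HSC calls and 58.8% of the MPP calls were higher in KO with TMM, against 45.2% and 47.8% with total-count scaling. The median log2 fold change of KO over WT was 0.106 in MPP and 0.1 in LT-HSC, and −0.009 and −0.001 over all regions. For the 43 regions outside Mllt3 it was 0.057 in MPP, with 4 called higher and 2 lower, and 0.064 in LT-HSC, with 3 called higher and 0 lower. On summed counts, Procr (0.20, SE 0.05, adjusted p = 0.00574), Esam (0.24, SE 0.06, adjusted p = 0.0032) and Mllt3 (0.15, SE 0.03, adjusted p = 0.00292) were higher in KO MPP. In LT-HSC only Mllt3 was called (0.12, SE 0.03, adjusted p = 0.0163). Of all genes 29.3% were called in MPP (15.4% higher, 13.9% lower) and 17.0% in LT-HSC (8.09% higher, 8.93% lower), so 3 and 1 of 8 lie near the background. The Procr call in MPP was lost when only regions overlapping its body were summed (adjusted p = 0.13), which leaves 1 of its 7 regions.

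Summed Procr was 54.6, 53.6 and 55.4 CPM in KO MPP against 46.5, 43.8 and 52.8 CPM in WT MPP, without overlap. Summed Mllt3 was 123, 128 and 135 CPM in KO MPP against 116, 118 and 113 CPM in WT MPP, and 214, 218 and 214 CPM in KO LT-HSC against 200, 194 and 198 CPM in WT LT-HSC. Neither pair of Mllt3 groups overlapped. The LT-HSC call was lost with the gene-end covariate (adjusted p = 0.0862) and without WT LT-HSC 2 or KO LT-HSC 2. Esam had 26, 25.7 and 25.4 CPM in KO MPP against 19.7, 23.2 and 22.3 CPM in WT MPP, and the same direction at each of its 3 regions (0.24 to 0.29), none of which passed alone. The region inside the gene was near the threshold (adjusted p = 0.0502) and passed with no filter (0.0496), with the replicate block (0.0263) and without WT MPP 2 (0.00682). The interval of summed Esam in LT-HSC was −0.08 to 0.12 (2 SE on either side), and the difference between the changes in MPP and in LT-HSC was 0.22 with an adjusted p of 0.285. For the other genes not called in LT-HSC, the intervals of KO over WT were 0.00 to 0.19 for Procr, −0.14 to 0.06 for Fgd5, −0.08 to 0.09 for Ctnnal1, −0.13 to 0.13 for Ly6a, −0.09 to 0.19 for Robo4 and −0.32 to 0.22 for Ndn. In MPP they were −0.19 to 0.01 for Fgd5, −0.09 to 0.09 for Ctnnal1, −0.09 to 0.17 for Ly6a, −0.30 to −0.01 for Robo4 and −0.67 to 0.29 for Ndn, none of which was called, although Fgd5 passed as lower without WT MPP 2 (−0.15, adjusted p = 0.0396).

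All 6 regions called higher in KO LT-HSC were also called higher in KO MPP. That is 54.5% of the 11 called there, while among all regions the shared higher calls were 45.4% of the LT-HSC list and 29% of the MPP list. The comparisons share no libraries, but whether they share mice was not stated, so they may not be independent. The Procr region at −8.1 kb, whose values are given above, rose by 0.46 (SE 0.07, adjusted p = 0.000289) in MPP and by 0.26 (SE 0.07, adjusted p = 0.0278) in LT-HSC. The Mllt3 region 209.8 kb downstream rose by 0.66 (SE 0.13, adjusted p = 0.00228) in MPP and 0.31 (adjusted p = 0.0392) in LT-HSC. In LT-HSC both had the highest level of their gene away from its promoter, and both were lower in MPP than in LT-HSC, as described above. In MPP other Mllt3 regions were higher than the one at 209.8 kb, among them that at −2.3 kb.

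Mllt3 had another 2 regions called in both populations. The one 170.0 kb downstream (chr4:87863203-87863634) had 3.66, 4.54 and 4.56 CPM in KO MPP against 2.61, 2.69 and 2.5 CPM in WT MPP (0.72, SE 0.13, adjusted p = 0.000779). In LT-HSC it had 5.29, 5.73 and 6.15 CPM in KO against 4.04, 4.44 and 4.08 CPM in WT (0.44, adjusted p = 0.0316). The one at −2.3 kb (chr4:88035454-88035888) had 6.32, 6.62 and 7.49 CPM in KO MPP against 5.84, 4 and 4.4 CPM in WT MPP (0.53, SE 0.13, adjusted p = 0.00849). In LT-HSC it had 9.74, 9.37 and 9 CPM in KO against 7, 6.41 and 5.24 CPM in WT (0.60, SE 0.12, adjusted p = 0.00415). KO libraries lay above WT libraries without overlap in each of these pairs. The adjacent main promoter did not pass (0.11 in MPP, 0.21 in LT-HSC, adjusted p = 0.342 and 0.0656).

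The other 2 shared calls were weak regions. In Ctnnal1 (chr4:56820161-56820635, gene body) the levels were 1.44, 2.05 and 2.35 CPM in KO MPP against 1.35, 1.06 and 1.32 CPM in WT MPP, and 1.93, 1.45 and 1.25 CPM in KO LT-HSC against 0.975, 0.815 and 0.984 CPM in WT LT-HSC (0.68 and 0.77). At Ly6a the region 3.5 kb outside the body had 1.87, 2.37 and 2.75 CPM in KO MPP, with the WT MPP values above, and 1.38, 1.52 and 1.02 CPM in KO LT-HSC (0.75 and 0.83). The Ctnnal1 region rests on 28 to 87 counts a library and the Ly6a region on 21 to 102. In LT-HSC the Ctnnal1 call was lost without any 1 of the WT libraries, KO 1 or KO 2, and the Ly6a call without WT 1, WT 2, KO 1 or KO 2. In MPP they were lost without KO 2, KO 3 or WT 2, and with the gene-end covariate. The Ctnnal1 call in MPP was also lost without WT 1 and with DESeq2.

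**Figure D4:**
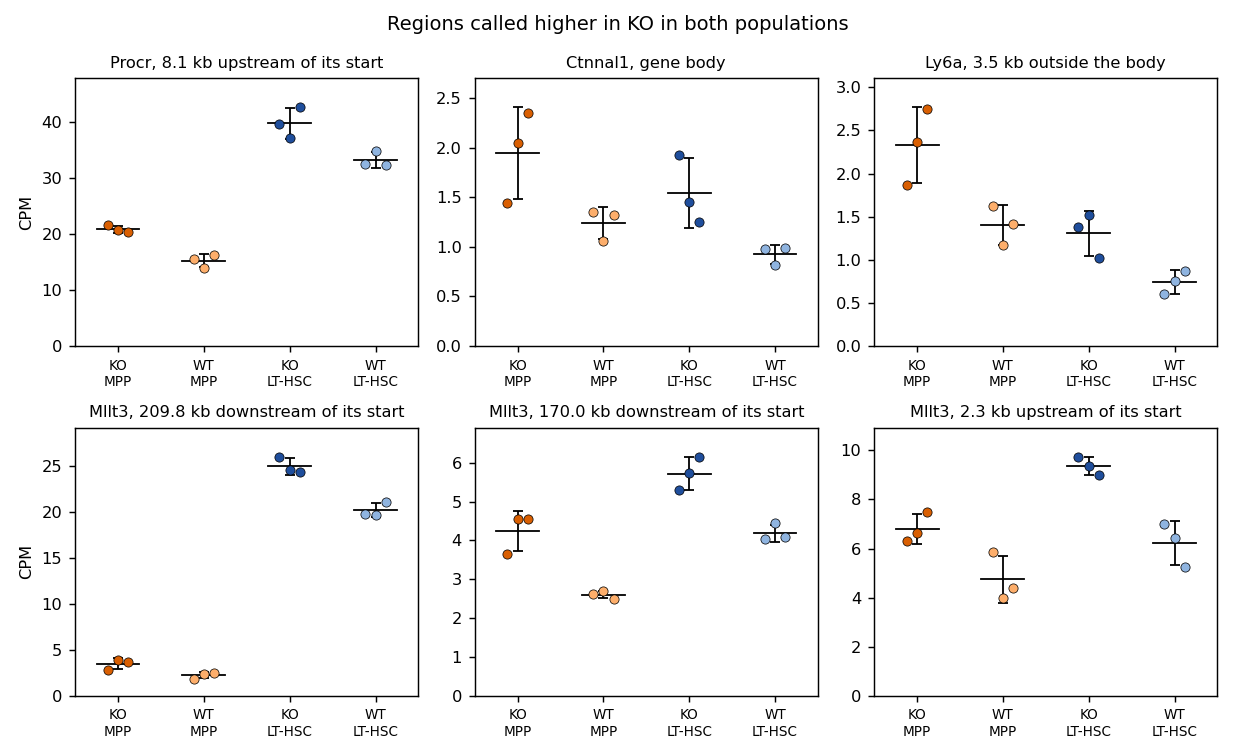
CPM (linear axes from 0) of the 6 regions called higher in KO in both populations, in KO MPP, WT MPP, KO LT-HSC and WT LT-HSC. Points are libraries, horizontal lines means and bars SD (n = 3). KO libraries lie above the WT libraries of the same population in every panel.

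In KO MPP alone, 7 further regions were called, and none of them passed in LT-HSC without a replicate block. Higher were the Procr region at −8.8 kb (0.40, adjusted p = 0.0353, with 5.15, 5.23 and 4.64 CPM in KO MPP overlapping the WT MPP values above) and 4 regions of Mllt3. Among these, the region 102.3 kb downstream had 1.87, 1.78 and 2.72 CPM in KO MPP against 0.802, 1.46 and 1.25 CPM in WT MPP (0.86, SE 0.21, adjusted p = 0.00831). Those 17.7 and 1.7 kb downstream rose by 0.53 and 0.34. The first call was lost without WT MPP 1, WT MPP 3 or any 1 KO MPP library (adjusted p up to 0.114) and the second under 11 alternatives, any 1 left-out MPP library among them. The Procr call at −8.8 kb was lost without WT MPP 1, WT MPP 2 or any 1 KO MPP library (adjusted p up to 0.181). In LT-HSC the regions at 102.3, 17.7, 1.7 and 231.1 kb had log2 fold changes of 0.50, 0.36, 0.16 and 0.35, and the first passed there with the replicate block (adjusted p = 0.0438, against 0.074 without it). The fourth, 231.1 kb downstream, rests on 7, 3 and 7 counts in KO MPP against 3, 1 and 0 in WT MPP, the libraries overlapped, and the call was lost without WT MPP 2, WT MPP 3, KO MPP 1 or KO MPP 3 (adjusted p up to 0.151). Lower were 2 regions of Fgd5. The one at −3.1 kb, listed above, fell by 0.58 (SE 0.15, adjusted p = 0.013), and the one 43.7 kb into the gene (chr6:92022386-92022951) had 1.44, 1.48 and 1.19 CPM in KO MPP against 2.15, 1.79 and 2.84 CPM in WT MPP (−0.70, SE 0.20, adjusted p = 0.0262). In LT-HSC these 2 had log2 fold changes of 0.11 and 0.01. The call at −3.1 kb was lost without WT MPP 1 or KO MPP 3, and that at 43.7 kb without WT MPP 1, WT MPP 3, KO MPP 2 or KO MPP 3. Both were also lost with the gene-end covariate (adjusted p = 0.318 at 43.7 kb).

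No region of the 8 genes passed the interaction test of genotype and population in edgeR or in DESeq2. An unadjusted p under 0.05 in edgeR was found for 10 of the 117, and for 14082 of all 186373 regions tested. In edgeR with TMM 0.00805% of all regions passed and 0.0212% of all genes, all of them higher, while DESeq2 called 38 regions higher and 29 lower, and 28 genes higher and 41 lower. A difference between the KO effects in MPP and LT-HSC was therefore not shown for any of them. None of the 7 regions over promoter windows was called by edgeR between genotypes in either population, against 13.5% higher and 2.64% lower in KO MPP and 10.3% higher and 0.953% lower in KO LT-HSC among all such regions. The same count of 0 held for the 15 regions of the 8 genes that lay within 1 kb of an end of any protein-coding gene. Of these 15, 5 in MPP and 3 in LT-HSC had an unadjusted p under 0.05. So did 7637 in MPP and 6704 in LT-HSC of all 24490 gene-end regions tested. Among all 24490 gene-end regions tested, 2788 were called higher and 587 lower in KO MPP. In KO LT-HSC, 2009 of them were called higher and 237 lower.

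**Figure D5:**
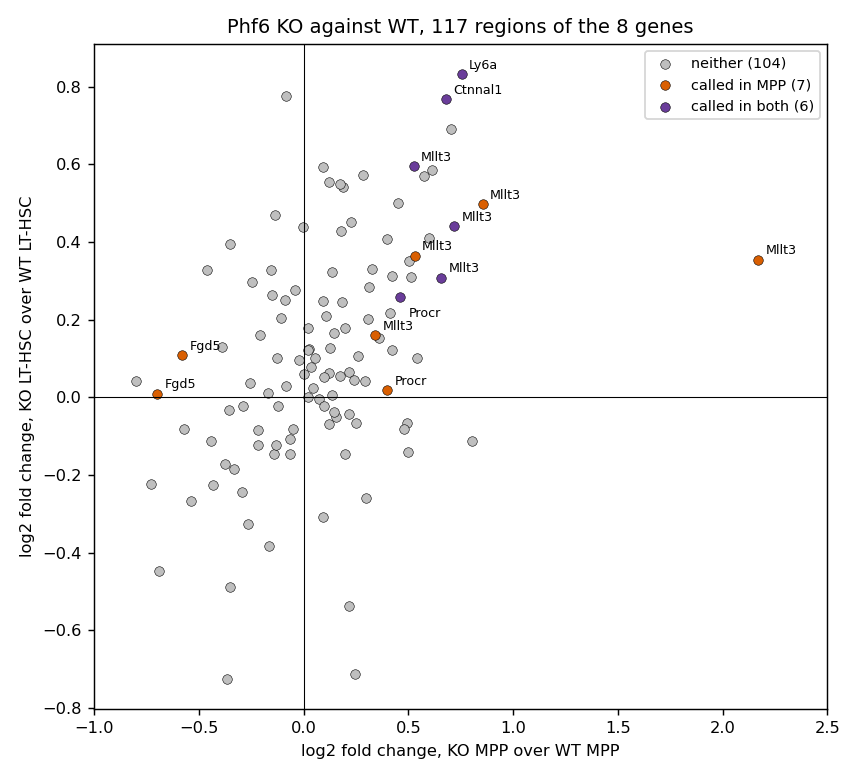
Log2 fold change of KO over WT in MPP (horizontal) and in LT-HSC (vertical) for the 117 regions. Colours give the regions called in both populations (6), in MPP (7) or in neither (104), with gene names at the called ones. The shared calls all lie at positive values on both axes, and the 2 Fgd5 regions at negative values in MPP lie near 0 in LT-HSC.

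How far single calls hold differed. In MPP, the Procr region at −8.1 kb and the Mllt3 regions 209.8 and 170.0 kb downstream kept their calls under every alternative that held the region, each left-out library included (highest adjusted p 0.00688, 0.0315 and 0.0198). In LT-HSC the Mllt3 region at −2.3 kb was lost only with the gene-end covariate (adjusted p = 0.161), which left none of the 6 calls there. Calls fell over all regions too: the covariate left 1382 higher and 461 lower in LT-HSC, against 6093 and 2741 without it. In MPP it left 3304 higher and 2310 lower, against 9542 and 6688 without it. The share of counts at gene ends was 41.0 to 41.4% in KO MPP and 39.2 to 41.0% in WT MPP, and 39.2 to 39.6% in KO LT-HSC and 37.8 to 38.9% in WT LT-HSC. The share thus went with genotype, so a call lost with this covariate cannot separate the share from the genotype. Without 1 LT-HSC library, 2 or 3 of the 6 calls were left (2 without KO 1, KO 2 or WT 1, and 3 without KO 3, WT 2 or WT 3). The Procr call there was lost without WT 1, WT 3, KO 1 or KO 3, the Mllt3 call at 209.8 kb without WT 1, WT 2 or any 1 KO library, and that at 170.0 kb without WT 1, WT 3, KO 2 or KO 3. In MPP, 3 were left of 13 without KO 3, 6 without WT 1, 7 without KO 2 and 8 without WT 2. Leaving out a library lowered the calls over all regions as well. In MPP, 4198 higher and 2237 lower were left without KO 3, and 6493 and 4532 without WT 1. In LT-HSC, 2571 higher and 833 lower were left without KO 2, and 4595 and 1991 without WT 3. The MPP calls of Mllt3 at −2.3 kb and 102.3 kb both needed KO 3, and the first also WT 2 and the second WT 1.

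Markers of other cells moved a little with genotype. In KO MPP, 3 of 6 erythroid genes were higher (197 to 205 CPM summed in KO MPP, 185 to 197 CPM in WT MPP), 2 of 6 myeloid genes were lower (238 to 246 CPM in KO MPP, 246 to 267 CPM in WT MPP), and of the endothelial genes Pecam1 was higher and Cdh5 lower. In KO MPP 1 T cell gene was lower (91.8 to 103 CPM summed in KO MPP, 95.9 to 103 CPM in WT MPP), and in KO LT-HSC 1 myeloid gene was lower (153 to 159 CPM in KO LT-HSC, 163 to 171 CPM in WT LT-HSC). Of the LT-HSC and MPP marker genes named above, Gata2, a stem cell transcription factor, was higher in KO MPP (0.33, adjusted p = 1.54e-05) and in KO LT-HSC (0.18, adjusted p = 0.00365), Flt3 was lower in KO MPP (−0.11, adjusted p = 0.0234), and no other was called between genotypes. Their part in the genotype results was not tested. Among the 33 other surface and reporter genes, 5 were higher and 4 lower in KO MPP, and 4 higher and 1 lower in KO LT-HSC, against 15.4% and 13.9% of all genes in MPP and 8.09% and 8.93% in LT-HSC. Among those with the lowest p in MPP were Pdzk1ip1 (0.25), Cd81 (0.23) and Eng (0.24), all higher in KO, and in LT-HSC Krt18 (−0.17, lower), Pdzk1ip1 (0.14), Eng (0.16) and Neo1 (0.15). Of the Ly6 neighbours, Ly6c2, Ly6d, Ly6g and Ly6k were lower in KO MPP, and 3 were lower and 1 higher in KO LT-HSC.

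By Pearson r of log2 CPM over the 12 libraries, the 3 genes with summed levels most like each member were as follows. Surface proteins: Avpr1a, Nr1h4 and Thbs2 for Procr, Scarf1, Plpp7 and Triqk for Esam, Ric3, Vip and Vps41 for Robo4, and Fgf7, Bpifa1 and Vmn2r18 for Ly6a. Reporters: Npr3, Samd5 and Tnfsf11 for Fgd5, and Cldn34a, Rem1 and Dsel for Ctnnal1. Regulators: Sdc2, Prrx2 and Ntf3 for Ndn, and Rnf217, Dpm3 and Epsti1 for Mllt3. The r of these pairs was 0.948 (Ly6a with Vmn2r18) to 0.998 (Mllt3 with Rnf217). The libraries form 2 populations, and within the 6 libraries of one population the r of the same pairs was 0.63 to 0.98 in MPP and −0.49 (Esam with Plpp7) to 0.98 in LT-HSC. An r over 0.95 was found for 489 to 2030 genes per member, and for 2 in the case of Ly6a, so a likeness at this level is common.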

How the data were processed

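ATAC-seq libraries of 12 samples were analysed from 1 table of raw counts per region deposited by the authors, which carry no normalization. The build is GRCm38, per the submitters' processing notes, which also name DESeq2 (version 1.22.1), cutadapt, featureCounts, Bowtie2 and MACS2 (version 2.1.1), with no role given here. How reads were filtered and how regions were merged was not stated. Reads were paired and 75 nt long, per the labels.

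The members, lists, tests and naming rule were chosen with earlier results of these data known. Regions (188262, coordinates counted from 1) were placed on RefSeq genes of GRCm38.p6, and 172530 (91.6%) were assigned. One edgeR model (version 4.0.16, under R 4.3.3) with a mean for each of 4 groups was fitted to the counts of the 12 libraries, after TMM scaling and filterByExpr (1889 regions left out, 186373 tested). The same fit was run on counts summed per gene (18829 genes). The quasi-likelihood F test was 2-sided, with Benjamini-Hochberg adjustment over all regions or genes per comparison. The biological coefficient of variation was 8.18%. Permuting 3 libraries against 3 exactly gives 0.1 as its smallest p, so it was not used. On simulated counts of KO against WT in LT-HSC over 186373 regions, 64 of 100 regions changed 1.5-fold and 93 of 100 changed 2-fold were recovered, with 6 false calls. The changed regions were drawn only from those above the median level (1.83 CPM), and the simulated spread followed the trend of dispersion with level. Recovery of changes in weaker regions was therefore not measured.

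Regions named in the text are, per gene, the gene-end region with the highest mean CPM, the region with the most CPM per kb, all regions called between genotypes, and up to 2 called regions with the largest change in each direction between MPP and LT-HSC in WT above the median level. Other regions named were chosen after their values were seen. One gene of the marker lists is not reported here. Alternatives were RLE and total-count scaling, a loess offset (limma 3.58.1), DESeq2 1.42.0, a minimum of 1 CPM in 3 libraries or no filter, a replicate block, fits of only the compared groups, the share of counts at gene ends as a covariate, an adjusted p under 0.01, gene-body overlap alone, and leaving out each library.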

Additional observations from a re-analysis of the deposited data

How the results depend on the processing

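The counts of called regions between genotypes depended on the processing, and those between populations did not in total move by over 1.5 times under any alternative run. Within them, the 11 regions called higher in MPP became 3 with the gene-end covariate in WT and in KO, 7 in WT and 8 in KO at an adjusted p under 0.01, and 7 in WT and 6 in KO with gene-body overlap alone. In LT-HSC the 6 regions called higher in KO became 1 with total-count scaling, 3 with a loess offset, 2 with at least 1 CPM in 3 libraries, 0 with the gene-end covariate, 1 at an adjusted p under 0.01, 3 with gene-body overlap alone, and 2 to 3 when 1 library was left out. In MPP the 13 called regions became 7 with the gene-end covariate, 5 at an adjusted p under 0.01, 8 with gene-body overlap alone, and 3 to 14 when 1 library was left out. On summed counts in LT-HSC the 1 called gene became 2 with the compared groups alone, 0 with the gene-end covariate, 0 at an adjusted p under 0.01, and 0 to 1 when 1 library was left out. The cause was not tested, apart from overlap alone and the stricter threshold, which remove regions or calls by construction. No result reversed. Over all regions, 69.0% of the calls in LT-HSC were higher in KO with TMM, 45.2% with total-count scaling, 55.3% with a loess offset and 83.2% with DESeq2, and in MPP 58.8% with TMM and 47.8% with total-count scaling. Deviations of same-numbered MPP and LT-HSC libraries of one genotype correlated weakly, at 0.0536 to 0.114. Different numbers gave −0.0781 to −0.00634 in WT and −0.0418 to −0.0146 in KO, and same numbers across genotypes −0.0367 to 0.033. All 6 LT-HSC libraries correlated best with their own number in MPP of the same genotype. The numbers thus went together within a genotype, but the tests above did not pair the libraries. The replicate block joins same numbers of both genotypes. With a replicate block 7 regions were called in LT-HSC, 14 in MPP, 0 for the interaction, and between MPP and LT-HSC 88 in WT mice and 90 in KO mice. Depth limits the weak regions: the Ly6a region that differed between genotypes rests on 21 to 102 counts a library.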
